A study of Mus musculus with 12 samples.

Results

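The genes described here are 10 genes of TGF-beta and activin signalling, measured in mouse skin wounds. They comprised 4 ligand genes (Tgfb1, Tgfb2, Tgfb3 and Inhba), the latency gene Ltbp1, 3 receptor genes (Tgfbr1, Tgfbr2 and Tgfbr3), the inhibitor gene Smad7 and the target gene Tgfbi. They were taken by symbol from a list chosen with earlier results of these data known. All 10 were found among the 55487 genes of each deposited table. Male C57BL/6JNarl mice, 6 weeks old, received 2 full-thickness punch wounds on the back, each kept under a Tegaderm dressing. Sham wounds were given Pluronic F127 gel alone every day, and CAP-treated wounds were given capsaicin (CAP), the pungent compound of chili peppers that opens the TRPV1 channel, at 10 µM in that gel. RNA of the excised wound and the skin around it was sequenced at day 3 and at day 6, with 3 libraries each of sham wounds at day 3, CAP-treated wounds at day 3, sham wounds at day 6 and CAP-treated wounds at day 6. All 4 groups thus shared the injury, the gel and the dressing, and unwounded skin was not analysed here. How many mice stand behind the 3 libraries of a group is not stated in the sources used here, so the tests measure the spread between libraries, which may be partly technical.

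TGF-beta is secreted in a latent complex with its own propeptide and a latent TGF-beta binding protein, and integrins and thrombospondin can free it in the matrix. Freed ligand binds a type II receptor, which activates a type I receptor, and the signal passes through Smad2 and Smad3 with Smad4 to the nucleus, where Smad7 is induced and feeds back on the receptor. Activin A, a dimer of the chain that Inhba encodes, uses receptors of its own and the same Smads, and follistatin neutralises it. In healing skin these ligands are known for their actions on fibroblast matrix, myofibroblasts, keratinocytes and leukocytes.

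Expression was given as TPM, a length-corrected measure of how much of a library's transcripts each gene supplied, on a common total. TPM does not keep the number of reads, so the depth is unknown and the precision rests on the 3 libraries per group. Markers of skin were present throughout, with at least 96.5 TPM for each of 5 keratinocyte markers and at least 29.5 TPM for each of 5 fibroblast markers in every library. Replicate 2 of the CAP-treated wounds at day 6 stood apart from the other libraries. Its 10 most abundant genes held 14.1% of the TPM, against 8.27% to 11.3% elsewhere, and it had the lowest summed neutrophil and endothelial markers of all 12 libraries and the highest summed keratinocyte markers. It was the lowest of the 6 day 6 libraries for 9 of the 10 genes, so the day 6 comparison of CAP is given with and without it. In whole tissue, fewer cells of a type and less RNA per cell cannot be told apart.

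Positions are those of the deposited tables, on mm10. Tgfb1 spans chr7:25687002-25705077 and Tgfb2 spans chr1:186622792-186705989. Tgfb3 spans chr12:86056745-86079041 and lies over part of the protein-coding gene Ttll5, which runs on the other strand. Inhba spans chr13:16011851-16031621, and Tgfbi lies on the same chromosome at chr13:56609523-56639562. Ltbp1 spans chr17:75005568-75392512. Of the receptors, Tgfbr1 spans chr4:47353222-47414931, Tgfbr2 spans chr9:116084293-116175360 and Tgfbr3 spans chr5:107106570-107289629. Inhba, Ltbp1, Tgfb2 and Tgfbr3 overlap only pseudogenes, noncoding genes or provisional gene models, and Smad7, Tgfb1, Tgfbi, Tgfbr1 and Tgfbr2 overlap no other annotated gene. No source used here says whether reads were counted by strand, and reads shared by Tgfb3 and Ttll5 cannot then be told apart.

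Promoter sequence from RefSeq (GRCm38.p6) was matched for 7 of the 10 genes, all but Tgfb3, Tgfbr3 and Smad7. The 250 bases before the start site are shown for Inhba, whose group means ranged most widely, and for Tgfb2. For Tgfb2, as for Tgfbi, whose window is not shown, all CAP-treated libraries lay below all sham libraries at both days. Lower without overlap were 8.75% of all genes at day 3 and 18% at day 6, and the share at both days was not counted. The Inhba window is chr13:16011601-16011850 on the plus strand, and the Tgfb2 window is chr1:186705990-186706239 on the minus strand. Capitals mark CAGAC, a short Smad-binding element.
Inhba: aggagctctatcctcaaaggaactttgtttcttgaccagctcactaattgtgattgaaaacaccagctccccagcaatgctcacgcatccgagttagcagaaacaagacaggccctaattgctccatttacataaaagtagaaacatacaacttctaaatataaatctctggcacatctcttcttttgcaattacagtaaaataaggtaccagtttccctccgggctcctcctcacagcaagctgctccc
Tgfb2: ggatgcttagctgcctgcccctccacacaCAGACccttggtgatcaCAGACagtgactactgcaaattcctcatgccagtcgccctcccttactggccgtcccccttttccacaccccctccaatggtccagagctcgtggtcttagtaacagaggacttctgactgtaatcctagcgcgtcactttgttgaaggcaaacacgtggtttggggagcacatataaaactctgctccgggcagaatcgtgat
The element was searched on both strands. It occurred 2 times in the Tgfb2 window, starting 221 and 204 bases before the start site, and not in the Inhba window. It was present in the windows of 4 of the 7 genes (Tgfb2, Tgfbr2, Ltbp1 and Tgfbi) and in 42.2% of 32851 promoters of the same length. The full Smad-binding palindrome GTCTAGAC was in 0 of the 7 windows and in 0.167% of all promoters, and the AP-1 motif TGANTCA was in 0 of the 7 windows and in 6.75% of all promoters. These matches are descriptions of the letters and not of factor binding.

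Tgfbi, which encodes a matrix protein first found as a gene induced by TGF-beta, was the most abundant of the 10 transcripts, with a mean of 541 TPM over the 12 libraries. Tgfbr2, the type II receptor, followed with 161 TPM and Tgfb1 with 138 TPM. Tgfbr3, the co-receptor betaglycan, had 50.9 TPM. The lower 6 were Tgfbr1 with 18.0 TPM, Inhba with 16.1 TPM, Ltbp1 with 14.0 TPM, Tgfb3 with 13.8 TPM, Smad7 with 9.61 TPM and Tgfb2 with 7.54 TPM. The order was clear at the top, where Tgfbi lay above Tgfbr2 in 12 of 12 libraries, Tgfb1 above Tgfbr3 in 12 of 12 and Tgfbr3 above Tgfbr1 in 12 of 12. Tgfbr2 and Tgfb1 changed places in 4 of 12 libraries. In the run of Tgfbr1, Inhba, Ltbp1 and Tgfb3, each lay above the next in only 6 or 7 of 12 libraries. Among the TGF-beta ligands, Tgfb1 was therefore the most abundant and Tgfb2 the least. The plot of TPM by library shows these levels.

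**Figure D1:**
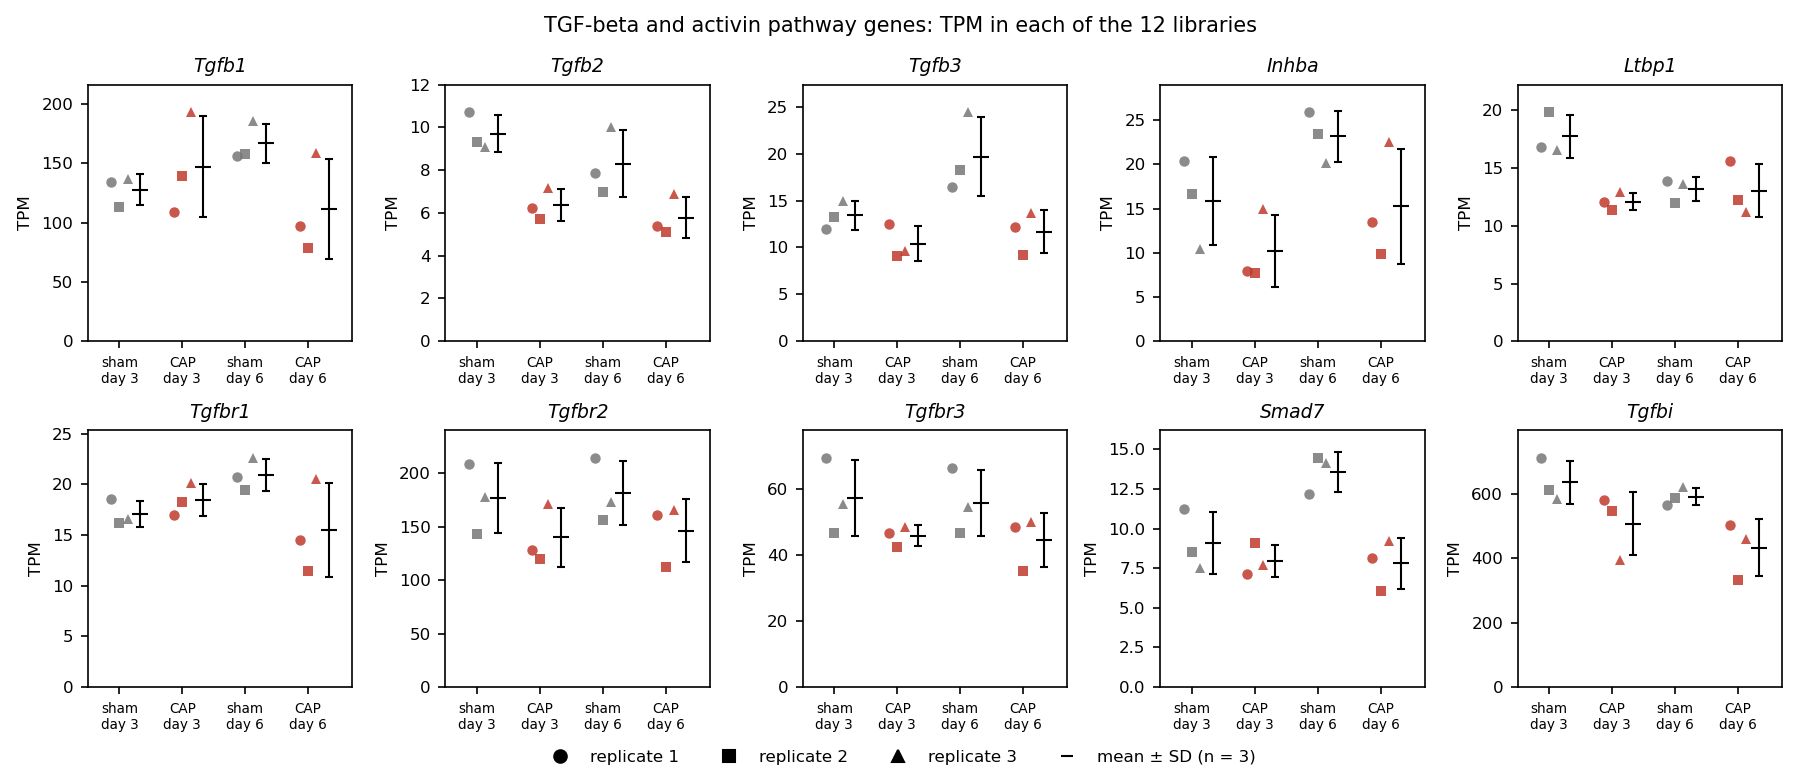
TPM of the 10 genes (vertical axes, each from 0) in the 12 libraries, grouped on the horizontal axis by treatment and day. Grey points are sham wounds, red points are CAP-treated wounds, the marker shape gives the replicate, and the black bar is the mean ± SD of 3 libraries. At day 6 the CAP-treated libraries of Smad7 lie between 6.06 and 9.24 TPM, below the sham libraries between 12.1 and 14.5 TPM.

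CAP-treated and sham wounds were first compared at day 3. Ltbp1, which encodes a protein that tethers latent TGF-beta to the matrix, and Tgfb2 had the largest differences relative to their errors, both lower in CAP-treated wounds. None of the 10 genes met the threshold of an unadjusted p under 0.05 with a difference of at least 2-fold, which 1.58% of 18330 genes met in this comparison, and none had an adjusted p under 0.05, which 0.0164% had (limma with Benjamini-Hochberg adjustment). At an unadjusted p under 0.05 alone there were 2 of the 10 genes, against 6.6% of all genes, and 4 without replicate 1 or replicate 3 of the CAP-treated wounds or without replicate 2 of the sham wounds. All differences below are in log2(TPM + 0.1), CAP minus sham. They were negative for 8 of the 10 genes and for 11395 of 18330 genes tested. The median was -0.34 for the 10 genes and -0.05 for all genes tested.

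Ltbp1 measured 12.1, 11.3 and 12.9 TPM in the CAP-treated wounds at day 3 and 16.8, 19.9 and 16.5 TPM in the sham wounds. All CAP-treated libraries were lower than all sham libraries. The log2 difference was -0.55 ± 0.12 (SE), with an unadjusted p of 0.0023 and an adjusted p of 0.50 in limma, and the exact 2-sided permutation test gave 0.1, the smallest p it can give for 3 against 3 libraries. Tgfb2 measured 6.24, 5.69 and 7.15 TPM in the CAP-treated wounds and 10.7, 9.32 and 9.09 TPM in the sham wounds. Its groups did not overlap either, and the log2 difference was -0.60 ± 0.14 (SE), with an unadjusted p of 0.0035, an adjusted p of 0.50 in limma and an exact permutation p of 0.1. Tgfbi measured 581, 545 and 395 TPM in the CAP-treated wounds and 711, 611 and 583 TPM in the sham wounds. These groups were separated by a small gap, and the log2 difference was -0.34 ± 0.17 (SE) with an adjusted p of 0.80 in limma. In all, the groups of 3 of the 10 genes did not overlap at day 3, each lower with CAP, against 8.75% of all genes lower without overlap and 11.6% without overlap in either direction.

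The other ligands overlapped at day 3. Inhba had the widest spread, with 7.99, 7.75 and 14.9 TPM in the CAP-treated wounds and 20.4, 16.7 and 10.5 TPM in the sham wounds. Its log2 difference of -0.64 ± 0.33 (SE) was the most negative of the 10 genes, but replicate 3 of each group lay within the range of the other group (adjusted p of 0.81 in limma). The mean of Tgfb3 was 10.4 ± 1.83 TPM (SD, n = 3) with CAP and 13.4 ± 1.51 TPM (SD, n = 3) without it. Tgfb1 was the ligand with a positive value, a log2 difference of 0.17 ± 0.21 (SE), from 109, 139 and 193 TPM with CAP and 134, 113 and 136 TPM without it. Without replicate 3 of the CAP-treated wounds the difference was -0.05. The receptors overlapped between groups too, with log2 differences of 0.11 ± 0.11 (SE) for Tgfbr1, -0.34 ± 0.18 (SE) for Tgfbr2 and -0.30 ± 0.15 (SE) for Tgfbr3. Smad7 had 7.13 to 9.09 TPM with CAP and 7.50 to 11.2 TPM without it, a log2 difference of -0.17 ± 0.18 (SE).

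Cell type markers at day 3 stood beside these values as follows. The summed level of the 5 fibroblast markers was 8589 to 12769 TPM in CAP-treated wounds and 11849 to 18803 TPM in sham wounds. Of the 5, 0 were past the threshold in limma and none was at 0. Pdgfra differed by -0.05 ± 0.21 (SE), and Col1a1, Col3a1, Lum and Dcn by -0.68, -0.55, -0.42 and -0.24. Col1a1 and Dcn also belong to the list of other pathway genes read below. The summed level of the 4 platelet markers was 495 to 543 TPM with CAP and 253 to 438 TPM without it. Of the 3 tested, Ppbp was higher past the threshold at a log2 difference of 1.19 ± 0.45 (SE), with overlapping groups. Pf4 was at 0.55 and Itga2b at -0.22, neither past the threshold, and Gp9 was listed at 0 in at least 1 library. The 5 macrophage and monocyte markers summed to 4355 to 9666 TPM with CAP and 3679 to 5163 TPM without it. Ly6c2 was lower at a log2 difference of -2.48 ± 0.67 (SE), and Csf1r was at -0.25. Lyz2, Cd68 and Adgre1 went the other way, at 0.64, 0.40 and 0.13. The 4 markers of T and NK cells summed to 18.5 to 20.1 TPM with CAP and 17.1 to 24.6 TPM without it. Trac was lower at -1.34 ± 0.40 (SE), and Nkg7, Cd3e and Cd3g differed by -0.70, -0.01 and 0.19. In both lists no marker was at 0. Their part in the differences of the 10 genes was not tested.

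At day 6 all 10 genes were lower in CAP-treated than in sham wounds, as were 12044 of 18323 genes tested. Ltbp1, with a log2 difference of -0.03, turned positive under other scalings of the libraries and with some single libraries left out. The largest differences were those of Smad7, Tgfb3, Inhba and Tgfb1. None of the 10 genes reached 2-fold with an unadjusted p under 0.05, which 3.8% of 18323 genes did. No gene tested had an adjusted p under 0.05 (limma with Benjamini-Hochberg adjustment). At an unadjusted p under 0.05 alone there were 5 of the 10 genes (Smad7, Tgfb3, Tgfbi, Tgfb2 and Tgfb1), against 19.2% of all genes. The median log2 difference was -0.49 for the 10 genes and -0.12 for all genes tested. TPM fixes the total of each library. Scaling the libraries by the median ratio to a reference moved the median of all genes by 0.11 and quantile normalization by 0.12. Under these scalings 3 and 4 of the 10 genes had an unadjusted p under 0.05 in limma. Relative to the median of all genes, the differences ranged from -0.68 for Smad7 to 0.10 for Ltbp1, and Ltbp1 was the gene that turned positive under both scalings, at 0.08 and 0.12.

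Smad7 lies on chromosome 18 and encodes the inhibitor that TGF-beta signalling itself induces. It measured 8.14, 6.06 and 9.24 TPM in the CAP-treated wounds at day 6 and 12.1, 14.5 and 14.1 TPM in the sham wounds. All CAP-treated libraries were lower than all sham libraries. The log2 difference was -0.81 ± 0.18 (SE), 0.572 times the sham level, with an unadjusted p of 0.0033, an adjusted p of 0.21 in limma and an exact permutation p of 0.1. Without replicate 2 of the CAP-treated wounds it was -0.64 with an unadjusted p of 0.0043.

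Among the ligands at day 6, Tgfb3 measured 12.2, 9.16 and 13.6 TPM in the CAP-treated wounds and 16.4, 18.2 and 24.4 TPM in the sham wounds. The groups did not overlap, and the log2 difference was -0.75 ± 0.21 (SE), with an adjusted p of 0.21 in limma. It was -0.59 without replicate 2 of the CAP-treated wounds, with an unadjusted p of 0.022. Tgfb2 measured 5.37, 5.09 and 6.86 TPM with CAP and 7.89, 6.998 and 10.0 TPM without it. The highest CAP-treated library lay just below the lowest sham library. Its log2 difference was -0.51 ± 0.20 (SE), with an adjusted p of 0.24, and -0.43 without replicate 2 of the CAP-treated wounds, with an unadjusted p of 0.087. Tgfb1 measured 97.0, 78.9 and 159 TPM with CAP and 156, 158 and 185 TPM without it. Replicate 3 of the CAP-treated wounds lay among the sham libraries, and the log2 difference was -0.64 ± 0.25 (SE), with an adjusted p of 0.24 and an exact permutation p of 0.3. Without replicate 2 it was -0.42, with an unadjusted p of 0.098 in limma. Inhba had the same order among the CAP-treated libraries as Tgfb1, with 13.5, 9.84 and 22.5 TPM with CAP and 25.9, 23.5 and 20.1 TPM without it. Its log2 difference was -0.68 ± 0.29 (SE), with an adjusted p of 0.26, and -0.40 without replicate 2.

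Tgfbi measured 504, 333 and 460 TPM in the CAP-treated wounds at day 6 and 566, 587 and 620 TPM in the sham wounds. The groups did not overlap, and the log2 difference was -0.47 ± 0.17 (SE), with an adjusted p of 0.23 in limma, and -0.29 without replicate 2. The 3 receptors overlapped between the groups. Tgfbr1, the type I receptor, had 14.6, 11.5 and 20.5 TPM with CAP and 20.7, 19.4 and 22.6 TPM without it, a log2 difference of -0.47 ± 0.21 (SE), and -0.27 without replicate 2, with an unadjusted p of 0.17 in limma. Tgfbr2 differed by -0.32 ± 0.19 (SE) and Tgfbr3 by -0.33 ± 0.18 (SE), and without that library these became -0.14 and -0.17. Ltbp1, the gene with the clearest difference at day 3, had nearly equal levels at day 6, 13.1 ± 2.31 TPM (SD, n = 3) with CAP and 13.2 ± 1.02 TPM (SD, n = 3) without it. Its log2 difference of -0.03 had a 95% confidence interval from -0.40 to 0.35. Without overlap there were 4 of the 10 genes at day 6 (Smad7, Tgfb2, Tgfb3 and Tgfbi), all lower with CAP, against 18% of all genes lower and 26% in either direction.

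The count of genes at an unadjusted p under 0.05 rested on single libraries at day 6. It was 5 with all libraries, 3 without replicate 1 or replicate 2 of the CAP-treated wounds and 7 without replicate 3 of that group, 3 without replicate 2 of the sham wounds and 2 without replicate 1 or replicate 3 of the sham wounds. The share of all genes under that p was 19.2% with all libraries and is not given for the fits with a library left out. Without replicate 3 of the CAP-treated wounds, Tgfb1, Tgfbr1, Smad7 and Inhba had adjusted p values of 0.0314, 0.0495, 0.0404 and 0.0379 in limma, in a fit in which 1430 genes in all had an adjusted p under 0.05. Over the 12 alternatives the adjusted p ranged from 0.0314 to 0.473 for Tgfb1, 0.0495 to 0.551 for Tgfbr1, 0.0404 to 0.470 for Smad7 and 0.0379 to 0.512 for Inhba. Markers of other cells differed between the same libraries. The summed level of the 5 keratinocyte markers was 42590.3 to 89956 TPM in CAP-treated wounds and 24690.3 to 27717 TPM in sham wounds, with Krt1 and Krt10 higher and none at 0. The summed level of the 4 endothelial markers was 61.5 to 167 TPM with CAP and 198 to 262 TPM without it, with Cdh5 and Pecam1 lower and none at 0. The 5 fibroblast markers summed to 12683 to 17601 TPM with CAP and 16002 to 21431 TPM without it. The 4 platelet markers summed to 80.6 to 139.6 TPM with CAP and 143 to 201 TPM without it, with Ppbp lower. Of the 4 skeletal muscle and 4 adipocyte markers, Myh4 was lower and Lep higher, with overlapping sums in both lists. The part of these cells in the differences was not tested.

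**Figure D2:**
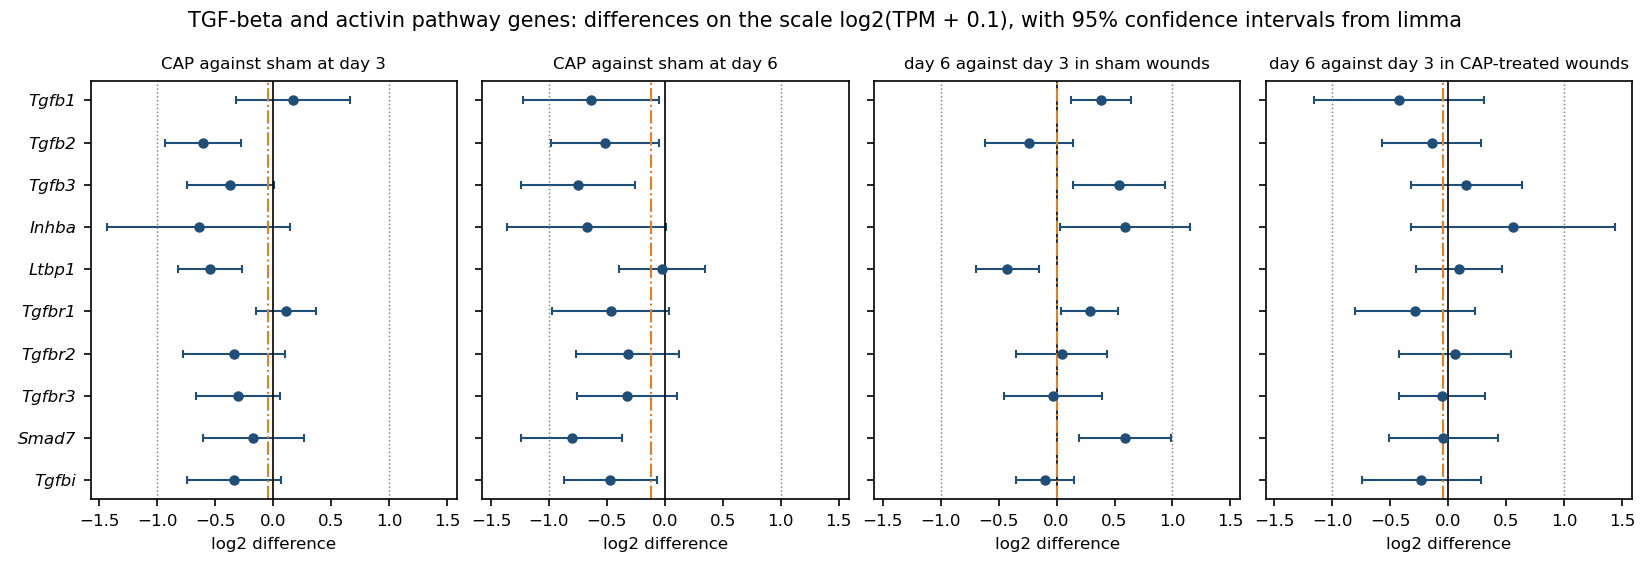
Log2 differences of the 10 genes on the scale log2(TPM + 0.1) (horizontal axis) with 95% confidence intervals from limma in 4 comparisons. The orange dash-dotted line is the median of all genes tested, the black line is 0 and the dotted lines mark 2-fold. No point reaches a dotted line, and at day 6 all 10 points of CAP against sham lie left of 0, from -0.81 for Smad7 to -0.03 for Ltbp1, which turned positive after median-ratio scaling or quantile normalization.

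The course in sham wounds was compared next. It shares the day 3 and day 6 sham libraries with the comparisons of CAP, so the values are given side by side and not as separate evidence. From day 3 to day 6, Smad7, Inhba, Tgfb3 and Tgfb1 were higher and Ltbp1 lower. None of the 10 genes met the threshold of an unadjusted p under 0.05 and 2-fold, which 3.75% of 18368 genes met, and none had an adjusted p under 0.05, which 2.29% of all genes had (limma with Benjamini-Hochberg adjustment). At an unadjusted p under 0.05 there were 6 of the 10 genes, against 16% of all genes, and 3 in a joint fit of all 12 libraries. The median log2 difference was 0.17 for the 10 genes and 0.00 for all genes tested.

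Smad7 had 7.50 to 11.2 TPM in sham wounds at day 3 and 12.1 to 14.5 TPM at day 6, a log2 difference of 0.59 ± 0.17 (SE) with an adjusted p of 0.14 in limma. Without replicate 1 of the sham wounds at day 3 its adjusted p in limma was 0.0496, the lowest of a range up to 0.369 over the 12 alternatives. Tgfb3 went from 11.96 to 15.0 TPM at day 3 to 16.4 to 24.4 TPM at day 6, a log2 difference of 0.54 ± 0.17 (SE) with an adjusted p of 0.18. Tgfb1 had 113 to 136 TPM at day 3 and 156 to 185 TPM at day 6, a log2 difference of 0.38 ± 0.11 (SE) with an adjusted p of 0.15. In these 3 genes, and in Tgfbr1 with a log2 difference of 0.29 ± 0.10 (SE), all day 6 libraries were higher than all day 3 libraries. Inhba had a difference of the same size as Smad7, 0.59 ± 0.24 (SE), but its groups overlapped, and without replicate 3 at day 3 it was 0.32 against 0.47 for Smad7. Ltbp1 was the exception in direction among the genes without overlap, with 16.5 to 19.9 TPM at day 3, 12.01 to 13.9 TPM at day 6 and a log2 difference of -0.42 ± 0.12 (SE, adjusted p of 0.13). Without overlap there were thus 4 genes higher and 1 lower of 10, against 10.8% and 10.6% of all genes, or 21.4% in either direction. Tgfb2, Tgfbi, Tgfbr2 and Tgfbr3 differed by -0.24, -0.10, 0.04 and -0.03, with no unadjusted p under 0.05. The 4 endothelial markers summed to 75.0 to 106 TPM at day 3 and 198 to 262 TPM at day 6 in sham wounds, and the 4 markers of wound-edge keratinocytes to 24245 to 27800 TPM and 9497 to 15317 TPM. The 5 macrophage and monocyte markers summed to 3679 to 5163 TPM and 6552 to 9544 TPM, but 1 of them was lower past the threshold and 0 were higher. The 4 platelet markers summed to 253 to 438 TPM and 143 to 201 TPM, and the 4 adipocyte markers to 158 to 239 TPM and 256 to 427 TPM. All these sums, and that of the skeletal muscle markers given below, moved without overlap. Their part in these differences was not tested.

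In CAP-treated wounds none of the 10 genes had an unadjusted p under 0.05 between the days, with intervals that for Inhba and Tgfb1 were wide. None met the threshold of an unadjusted p under 0.05 and 2-fold, which 2.79% of 18202 genes met, and none had an adjusted p under 0.05, which 0.00549% had (limma with Benjamini-Hochberg adjustment). At an unadjusted p under 0.05 there were 0 of the 10 genes, against 11.6% of all genes, but 2 without replicate 3 at day 6 and 1 without replicate 3 at day 3. No gene of the 10 was without overlap, against 17.7% of all genes. The log2 differences ran from -0.42 ± 0.31 (SE) for Tgfb1 to 0.56 ± 0.37 (SE) for Inhba, with a median of -0.05 for the 10 genes and -0.05 for all genes. Inhba had 7.75 to 14.9 TPM at day 3 and 9.84 to 22.5 TPM at day 6, and its confidence interval from -0.32 to 1.44 includes the difference of 0.59 in sham wounds. Smad7 had a mean of 7.98 ± 1.01 TPM (SD, n = 3) at day 3 and 7.81 ± 1.61 TPM (SD, n = 3) at day 6. Its difference of -0.04 had an interval from -0.51 to 0.43. Without replicate 2 of the CAP-treated wounds at day 6, the difference was 0.13 for Smad7, 0.83 for Inhba and -0.21 for Tgfb1.

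Whether CAP and sham differed by another amount at day 6 than at day 3 was tested in a fit of all 12 libraries. None of the 10 genes met the threshold of an unadjusted p under 0.05 and 2-fold, which 4.9% of 20267 genes met, and no gene tested had an adjusted p under 0.05 (limma with Benjamini-Hochberg adjustment). At an unadjusted p under 0.05 there were 4 of the 10 genes, against 11.3% of all genes. With 1 library left out there were 0 to 4, and the count was 0 without replicate 2 of the sham wounds at day 3. Tgfb1 had the largest value, -0.81 ± 0.35 (SE), from 0.17 at day 3 to -0.64 at day 6. Without replicate 1 of the CAP-treated wounds at day 3 or replicate 3 at day 6, the value for Tgfb1 was -1.004 or -1.094 and met the threshold. Smad7 differed by -0.63 ± 0.27 (SE) and Tgfbr1 by -0.58 ± 0.25 (SE), and Ltbp1 in the opposite direction by 0.52 ± 0.19 (SE). The adjusted p of these 4 genes was 0.43 in each case. For Tgfb2, Tgfbi, Tgfbr2, Tgfbr3 and Inhba the values lay between -0.13 and 0.09, with intervals that for Inhba ran from -1.09 to 1.03. Tgfb3 differed by -0.38 ± 0.27 (SE).

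The rest of the pathway was read from a list of 47 other genes, ordered by role. All 47 were in the tables, and 45 were abundant enough to be tested at each day. At day 3, 0 of 45 met the threshold of an unadjusted p under 0.05 and 2-fold in limma, against 1.58% of all genes, and 3 had an unadjusted p under 0.05, a share close to the 6.6% of all genes. These were Fst, Acvrl1 and Col1a1, all lower with CAP. Without replicate 1 of the sham wounds 1 gene of the list was higher past the threshold, where 86 of 18238 genes were. Without replicate 1 of the CAP-treated wounds 1 was lower, where 360 of 18234 genes were. Fst encodes follistatin, the antagonist of activin, Acvrl1 a type I receptor of endothelial cells and Col1a1 a chain of type I collagen. At day 6, 5 of 45 were lower with CAP past the threshold and 0 were higher, while 2.34% of all genes were lower and 1.46% higher past it, and 18 of 45 had an unadjusted p under 0.05, against 19.2% of all genes. No adjusted p was under 0.05. The groups of 18 of the 45 genes did not overlap with CAP lower, and those of 3 with CAP higher, against 18% and 8.01% of all genes. The 3 were Cd109, Zfyve9 and Acvr1c. Cd109, which encodes a TGF-beta co-receptor that dampens the signal, had the smallest p of the 45, with a log2 difference of 0.80 ± 0.11 (SE), an unadjusted p of 0.00012 and an adjusted p of 0.21 in limma, short of 2-fold. Acvr1c was listed below 1 TPM in all libraries. Of all genes past the threshold at day 6, 268 were higher and 429 lower, but 388 and 303 after median-ratio scaling and 411 and 254 after quantile normalization. The 5 pathway genes remained lower past the threshold under both scalings. By role, the median log2 difference at day 6 was -0.61 for 4 ligand genes, -0.59 for 11 genes of latency and activation, -0.49 for 6 target genes, -0.24 for 11 inhibitors, -0.16 for 7 receptors and -0.10 for 6 signal genes. These medians were not tested against each other, and some genes lay away from the median of their role, such as the receptor gene Eng (endoglin) at -0.99 ± 0.40 (SE), the inhibitor gene Bambi at -0.84 ± 0.33 (SE) and the ligand gene Mstn at 0.82 ± 0.41 (SE). The plot of differences by role shows all 45.

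**Figure D3:**
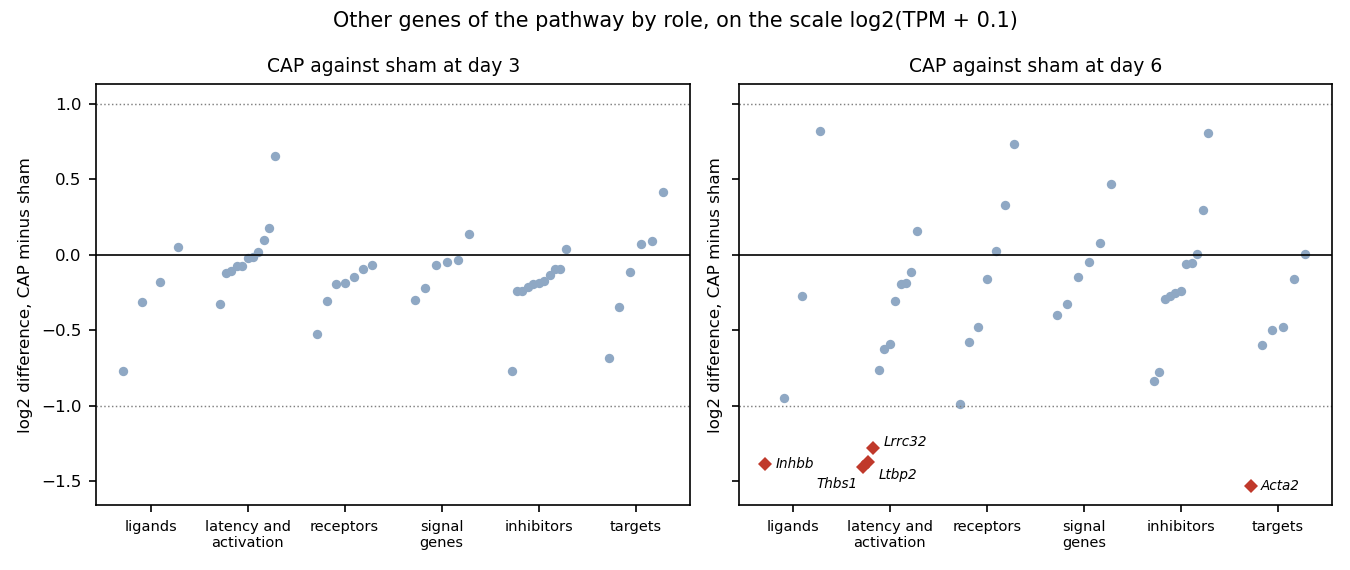
Log2 differences, CAP minus sham, on the scale log2(TPM + 0.1) (vertical axis) of 45 other pathway genes, set out by role on the horizontal axis and in order of value within a role, at day 3 and at day 6. Red diamonds are genes with an unadjusted p under 0.05 and at least 2-fold, and dotted lines mark 2-fold. At day 6, 5 genes lie below the lower dotted line as red diamonds, and at day 3 none does.

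Of these 5, Acta2, the smooth muscle actin of myofibroblasts and vessel walls, fell furthest. It measured 126, 32.9 and 122 TPM in the CAP-treated wounds and 177, 231 and 301 TPM in the sham wounds. Its groups did not overlap, and its log2 difference was -1.53 ± 0.52 (SE), with an unadjusted p of 0.021 and an adjusted p of 0.22 in limma. It was past the threshold in 9 of 12 alternatives. The remaining 4 were Thbs1, the thrombospondin that can free latent TGF-beta, at -1.41 ± 0.47 (SE), Inhbb, the chain of activin B, at -1.38 ± 0.50 (SE), the matrix gene Ltbp2 at -1.37 ± 0.50 (SE) and Lrrc32, which encodes the latent TGF-beta anchor GARP, at -1.28 ± 0.42 (SE). Thbs1 and Ltbp2 overlapped between groups. The 5 calls rested on replicate 2 of the CAP-treated wounds, since without it 0 of the list were past the threshold and Acta2, Thbs1, Inhbb, Ltbp2 and Lrrc32 had log2 differences of -0.89, -0.91, -0.78, -0.88 and -0.79. In that fit 171 of 18364 genes were lower past the threshold and 140 higher. Without replicate 3 of the CAP-treated wounds, 9 of the list were lower past it, where 1025 of 18148 genes were lower and 458 higher. Without replicate 1 or replicate 2 of the sham wounds, 1 of the list was lower, where 253 of 18216 or 338 of 18326 genes were.

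**Figure D4:**
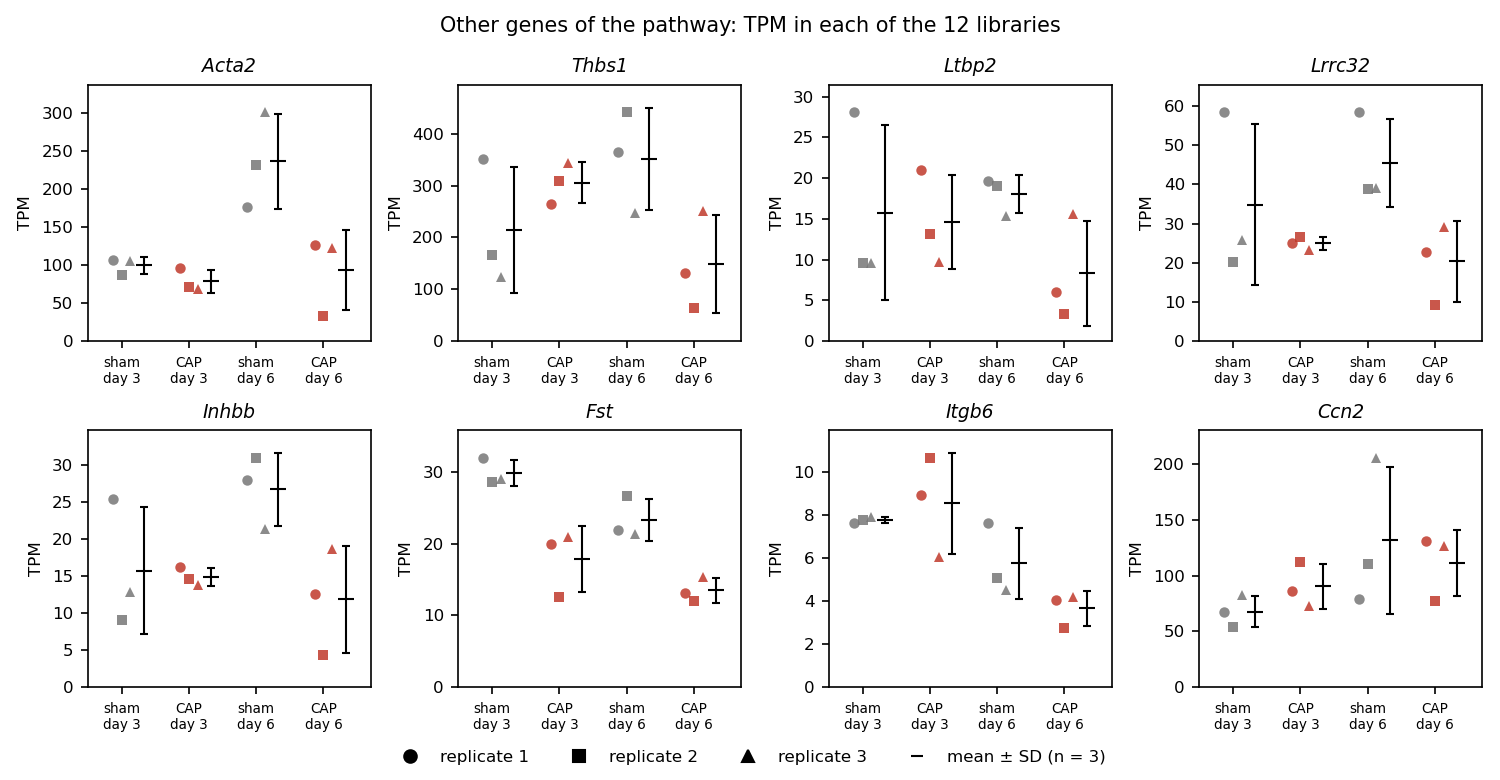
TPM of 8 other pathway genes (vertical axes, each from 0) in the 12 libraries, with the same points and bars as for the 10 genes. Acta2 lies between 32.9 and 126 TPM in CAP-treated wounds at day 6 and between 177 and 301 TPM in sham wounds, and all Fst points of CAP-treated wounds lie below all sham points of the same day.

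Several other genes were read whatever their values. Fst measured 20.0, 12.6 and 20.9 TPM in CAP-treated wounds and 31.9, 28.6 and 28.9 TPM in sham wounds at day 3, and 13.1, 12.02 and 15.4 TPM and 21.9, 26.6 and 21.3 TPM at day 6. It lay lower with CAP without overlap at both days, with log2 differences of -0.77 ± 0.20 (SE) and -0.78 ± 0.15 (SE) and adjusted p values of 0.54 and 0.21 in limma, short of 2-fold. Of all genes, 8.75% were lower without overlap at day 3 and 18% at day 6, with no share counted for both days. Ccn2, a matricellular target gene, differed by 0.41 ± 0.21 (SE) at day 3 and -0.16 ± 0.37 (SE) at day 6. At day 6 the signal gene Smad3 differed by -0.40 ± 0.15 (SE), Smad2 by -0.33 ± 0.15 (SE) and Smad4 by -0.15 ± 0.11 (SE), and at day 3 by -0.30 ± 0.15 (SE), 0.14 ± 0.18 (SE) and -0.03 ± 0.10 (SE). Zfyve9, whose product anchors Smad2 and Smad3, differed by 0.47 ± 0.17 (SE) at day 6.

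From day 3 to day 6 in sham wounds, 1 of the 45 genes was higher past the threshold and 1 lower in limma, where 2.13% and 1.61% of all genes were. Acta2 rose from 86.5 to 107 TPM at day 3 to 177 to 301 TPM at day 6, a log2 difference of 1.22 ± 0.19 (SE) and the one of the 45 with an adjusted p under 0.05 (0.031). Across the 12 alternatives the adjusted p of Acta2 ran from 0.0272 to 0.285. Mstn, the muscle growth inhibitor myostatin, fell, with a log2 difference of -1.20 ± 0.38 (SE), but was short of 2-fold at -0.75 without replicate 2 at day 6 and at -0.88 with a pseudocount of 1 TPM. Without replicate 1 at day 3 the list had 4 genes higher and 1 lower past the threshold, where 540 and 333 of 18278 genes were. Without replicate 3 at day 6 it had 3 higher and 1 lower, where 342 and 299 of 18317 genes were. The 4 skeletal muscle markers summed to 2905 to 4156 TPM at day 3 and 1723 to 2715 TPM at day 6 in the same libraries, and their part in the value for Mstn was not tested. In CAP-treated wounds, 2 of the 45 genes were lower past the threshold and 0 higher, where 1.52% and 1.27% of all genes were. These were Thbs1, at -1.24 ± 0.45 (SE), and Itgb6, a chain of an integrin that activates TGF-beta in epithelium, at -1.18 ± 0.27 (SE), from 8.96, 10.7 and 6.04 TPM at day 3 to 4.06, 2.75 and 4.21 TPM at day 6. Without replicate 2 at day 6 neither was past the threshold, with Itgb6 at -0.99 (unadjusted p of 0.010 in limma) and Thbs1 at -0.74. Itgb6 was past it in 11 of 12 alternatives and Thbs1 in 7 of 12. The 4 platelet markers summed to 495 to 543 TPM at day 3 and 80.6 to 139.6 TPM at day 6 in these libraries, and the 4 markers of wound-edge keratinocytes to 17771 to 35459.9 TPM and 6272 to 23102 TPM. The 5 keratinocyte markers summed to 22981 to 43864 TPM and 42590.3 to 89956 TPM, with 2 higher past the threshold and 0 lower. Among the 4 markers of T and NK cells 2 were higher and 0 lower, and among the 5 neutrophil markers 2 were lower and 0 higher. Their part in these values was not tested. In the test of the difference between days, 2 of 46 genes were past the threshold, with Thbs1 at -2.06 ± 0.67 (SE) and Mstn at 1.59 ± 0.64 (SE), each with an adjusted p of 0.43 in limma, where 4.9% of all genes were past it. Thbs1 was past the threshold in 17 of 17 alternatives and Mstn in 10 of 17. Without replicate 2 of the CAP-treated wounds at day 6, Thbs1 was at -1.56 and past it, and Mstn was at 1.54 with an unadjusted p of 0.055 in limma. Without replicate 3 of that group, 1 gene of the list was higher past it and 4 were lower, where 662 and 1115 of 20338 genes were.

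For the 3 of the 10 genes with the widest range of group means, the genes with the most similar profile over the 12 libraries were looked up by the root mean square distance between centred values of log2(TPM + 0.1), among 16168 genes that averaged at least 1 TPM. Inhba ranged by 1.23 between its highest group (sham, day 6) and its lowest (CAP, day 3), and its nearest profiles were Adam19, Fgf11, Jcad, Gm16008 and Fbn2, at distances of 0.24 to 0.27. Tgfb3 ranged by 0.91 between the same groups and lay nearest to Msrb3, Gjc1, Fam174b, Mpzl1 and F2r, at 0.16 to 0.19. Smad7 ranged by 0.81 between sham and CAP-treated wounds at day 6 and lay nearest to Tlr2, Scarf2, Pomt2, Dgkh and Ier3, at 0.17 to 0.18. These distances compare with a root mean square spread of 0.59 for Inhba, 0.40 for Tgfb3 and 0.38 for Smad7 around their own means.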

How the data were processed

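RNA of whole skin wounds was sequenced with the SureSelect XT HS2 mRNA kit, as paired-end reads, in 12 libraries of 4 groups. The labels name bcl2fastq, Trimmomatic 0.36 and mm10, and the methods name StringTie for the expression estimates. The authors deposited 1 table per library with TPM of 55487 genes. All columns have the same total to within rounding, and 0.0001 stands in place of 0. Other columns of per-sample values numbered 0, and the comparison by DESeq or DESeq2 that the methods describe is not in the tables. TPM keeps no depth, so no counting error was given.

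From these values, log2(TPM + 0.1) was tested in the groups compared with R 4.3.3 and limma 3.58.1 (trend on, robust off). Genes had to average at least 0.3 TPM in each group compared, or in at least 1 of 4 groups for the difference between days, and all 10 genes passed. The threshold was the study's criterion, a difference of at least 2-fold with an unadjusted p under 0.05, and Benjamini-Hochberg adjusted p values over all genes tested were read beside it. Single genes also had an exact 2-sided permutation test over 3 against 3 libraries, whose smallest p is 0.1. The 5 comparisons were CAP against sham at each day, day 6 against day 3 in each treatment, and the difference of the CAP effect between the days. Replicates are libraries as numbered in the labels. No pair of libraries held identical values.

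The 10 genes, the list of 47 other pathway genes, the markers and the tests were chosen with earlier results of these data known. Of the other pathway genes, those past the threshold were named, up to 6 per comparison and direction by p, and Fst, Ccn2, Inhbb, Smad2, Smad3 and Smad4 whatever their values. A further item of the list is not reported here. Acvrl1, Col1a1, Eng, Bambi, Cd109, Zfyve9, Acvr1c and, at day 6, Mstn were named after their values were seen. For the 3 of the 10 genes with the widest range of group means, the 5 nearest profiles were named. Alternatives were a pseudocount of 1 TPM, no filter, a joint fit of all 12 libraries, a replicate block, median-ratio scaling, quantile normalization and leaving out each library in turn. The share of all genes at an unadjusted p under 0.05 is given for the comparisons as first fitted and not for the alternatives. The fit was tested on simulated data. Promoters came from a RefSeq table of GRCm38.p6. Tables and plots were made with pandas 2.3.3, numpy 2.4.6 and matplotlib 3.10.9 under Python 3.11.15.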

Additional observations from a re-analysis of the deposited data

Results flagged for a closer look

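For 4 of the 10 genes, CAP and sham differed by another amount at day 6 than at day 3 at an unadjusted p under 0.05 in limma, in the test of that difference itself. None kept this after adjustment over 20267 genes, of which 11.3% were under the same unadjusted p. Tgfb1 had a log2 value of -0.81, with a Benjamini-Hochberg adjusted p of 0.43 from a fit of 3 libraries per group, and the separate differences were 0.17 at day 3 and -0.64 at day 6. Smad7 had -0.63, from -0.17 at day 3 and -0.81 at day 6. Tgfbr1 had -0.58, from 0.11 and -0.47. Ltbp1 had 0.52, from -0.55 and -0.03. Without replicate 2 of the CAP-treated wounds at day 6 the values were -0.59 for Tgfb1, -0.46 for Smad7, -0.38 for Tgfbr1 and 0.56 for Ltbp1, and Ltbp1 alone had an unadjusted p under 0.05. Without replicate 2 of the sham wounds at day 3 none of the 10 genes had one, with Ltbp1 at 0.44 and an unadjusted p of 0.054 in limma, and over all libraries left out in turn the count ran from 0 to 4.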

How the results depend on the processing

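Of 650 values of the 10 genes under the alternatives, 604 kept their sign and their side of the threshold, 44 turned sign and 2 (Tgfb1 in the difference between days) passed the threshold, and the cause was not tested. With all 12 libraries none of the 10 genes was past it under any alternative. Scaling turned values near 0. For Ltbp1 with CAP at day 6, the log2 difference became 0.083 after median-ratio scaling and 0.12 after quantile normalization. Between the days in CAP-treated wounds, Smad7 became 0.00024 and 0.017, and Tgfbr3 became 0.00085 after quantile normalization. In the difference between days, Inhba became 0.020 and 0.017, and Tgfbr3 0.027 and 0.022. Counts of all genes past the threshold moved with the pseudocount of 1 TPM (fewer low genes reach 2-fold) to 154 from 290 at day 3, 385 from 697 at day 6, 405 from 688 between days in sham wounds, 299 from 507 in CAP-treated wounds and 580 from 994 for the difference, and the other pathway genes past it between days in sham wounds to 1 from 2. With no filter (more genes tested) they were 568, 1156 and 842 at day 3 and between days in sham and CAP-treated wounds.

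Leaving out 1 library in turn gave 204 to 510 genes past the threshold at day 3 (510 without CAP replicate 1), 311 to 1483 at day 6 (311 without CAP replicate 2 and 1483 without CAP replicate 3), 382 to 886 between days in CAP-treated wounds (886 without day 6 replicate 3) and 657 to 1777 for the difference (657 without CAP day 6 replicate 2 and 1777 without replicate 3). Other pathway genes past it numbered 0 to 1, 0 to 9, 2 to 5 in sham wounds, 0 to 3 in CAP-treated wounds and 1 to 5, and of the 10 genes 0 to 1 for the difference. Values that turned sign ranged, for CAP, from -0.046 to 0.37 for Tgfb1 at day 3 and -0.16 to 0.075 for Ltbp1 at day 6. In sham wounds they ranged from -0.17 to 0.12 for Tgfbr3 and -0.10 to 0.17 for Tgfbr2. In CAP-treated wounds they ranged from -0.042 to 0.24 for Tgfbr2, -0.17 to 0.13 for Smad7, -0.041 to 0.20 for Ltbp1 and -0.14 to 0.11 for Tgfbr3. For the difference they ranged from -0.11 to 0.20 for Tgfbr2, -0.17 to 0.14 for Tgfbr3, -0.35 to 0.27 for Inhba, -0.037 to 0.23 for Tgfb2 and -0.30 to 0.045 for Tgfbi.

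Correlations of same-numbered deviations from the group means ran from -0.09 to 0.16. Between days in CAP-treated wounds, replicate 3 had 0.16, against at most -0.01 with other numbers. Replicate 2 had -0.03, against up to 0.14 with other numbers. Such correlations cannot settle whether libraries with the same replicate number share a mouse or a batch. With the replicate block, 298, 725, 709, 548 and 1084 genes were past the threshold in the 5 comparisons, and 0 of the 10 genes was past it. With CAP at day 6, 8 of the 10 rather than 5 had an unadjusted p under 0.05 in limma with the block. That count was 3 after median-ratio scaling and 4 after quantile normalization. The share of all genes under that p is not given for these 3 fits, so the counts cannot be read against it. The unknown depth and 3 libraries per group limit all values.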
